A study of Mus musculus with 6 samples.

Results

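Type I interferon antiviral genes were followed in mouse colonic mucosa as a set of 37 genes, taken from a list of interferon-stimulated effectors, sensors and signalling factors and matched to bead array probes that name 1 gene only. Of the 37 genes, 33 had a probe (59 probes in all) and 28 were above background on at least 1 array, out of 17698 genes with a probe and 8940 above background on at least 1 array. Oas1a, Isg15, Ifi44 and Usp18 had no probe under their own name, and Ifih1, Ifit1, Mx1, Rtp4 and Zbp1 were below background on all 6 arrays. The 6 groups, each 1 array of RNA pooled from 5 mice, were Foxo4 knockout mice (Foxo4_KO) and wild-type mice (WT), each left untreated, given an enema of 50% ethanol, or given an enema of trinitrobenzene sulfonic acid (TNBS, 250 mg by the label) in 50% ethanol. Mice were FVB/N6 and 8 weeks old, and the enema groups were sampled on day 2. TNBS is a hapten used with ethanol to provoke colitis, and ethanol alone is its vehicle. Foxo4 is a forkhead transcription factor, and the sources used here do not give how its allele was made.

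Type I interferons signal through a receptor made of Ifnar1 and Ifnar2, whose kinases Jak1 and Tyk2 phosphorylate Stat2. With Irf9 it takes part in a complex that binds the interferon-stimulated response element (ISRE) and switches on genes whose products block viral entry, translation, replication and budding. In the gut, type III interferons drive much the same genes in epithelial cells through Ifnlr1 and Il10rb, and interferon gamma acts on genes that carry the gamma-activated sequence (GAS).

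Array signals averaged between 225 and 277, and between 11181 and 14363 probes per array were above background. Log2 signals correlated between arrays at 0.947 to 0.986, and the Foxo4_KO TNBS array had the lowest correlations, 0.947 to 0.969. The 1 probe for Foxo4 was below background on all 6 arrays, so it did not check the genotype labels. One sentence of the submitters' design text speaks of tendon fascicles, but the epithelial genes Epcam, Cdh1, Krt18, Krt19, Vil1, Cldn7 and Lgals4 were above background on all 6 arrays, while Krt8 and Krt20 were below it on all. Xist, the X-inactivation RNA, had a log2 signal of 10.36 in the untreated and 7.52 in the TNBS pool of Foxo4_KO mice, and 9.84 in the untreated WT pool, while it was below background in both ethanol pools and in the WT TNBS pool. The labels do not give the sex of the mice.

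RefSeq promoter windows (GRCm38.p6, from 250 bases before to 50 after the start site) were given for 28 of the 37 genes, and they were searched on both strands for the ISRE core, written as GAAA, any 2 bases, GAAA, and for GAS, written as TTC, any 3 bases, GAA. The ISRE core was in the promoter of 15 of 28 interferon genes (53.6%), against 1079 of 27025 genes in all (3.99%). GAS was in 7 of 28 (25%), against 2582 genes in all (9.55%). Mx1, Mx2, Rtp4, Parp9, Parp14, Dhx58, Zbp1, Oas2 and Usp18 had no window. The stretches below are shown because they carry the ISRE core in genes with a large genotype difference (Rsad2, Apol9a, Apol9b), in genes above background in Foxo4_KO pools only (Stat2, Oas3), in Bst2, whose TNBS pool was lower than its ethanol pool in Foxo4_KO and higher in WT, and in one below background on every array (Ifit1). Capitals mark the match, which reads TTTC, any 2 bases, TTTC where it lies on the strand opposite to the gene.
Rsad2: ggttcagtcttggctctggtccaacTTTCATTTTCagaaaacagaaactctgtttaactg
Apol9a: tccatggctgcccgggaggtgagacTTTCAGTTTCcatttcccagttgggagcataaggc
Apol9b: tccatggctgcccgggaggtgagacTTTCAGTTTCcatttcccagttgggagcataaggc
Stat2: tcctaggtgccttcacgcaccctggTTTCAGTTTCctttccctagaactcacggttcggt
Oas3: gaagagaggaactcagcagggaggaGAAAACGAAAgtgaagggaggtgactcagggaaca
Bst2: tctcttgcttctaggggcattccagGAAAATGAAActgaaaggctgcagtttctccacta
Ifit1: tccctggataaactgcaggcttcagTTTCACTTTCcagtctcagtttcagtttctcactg
These stretches lie upstream of the start site at chr12:26456538-26456597 (minus strand) for Rsad2, chr15:77411105-77411164 (minus strand) for Apol9a, chr15:77729010-77729069 (plus strand) for Apol9b, chr10:128270251-128270310 (plus strand) for Stat2, chr5:120777700-120777759 (minus strand) for Oas3, chr8:71537568-71537627 (minus strand) for Bst2 and chr19:34640760-34640819 (plus strand) for Ifit1. The stretch is the same in Apol9a and Apol9b, which are close copies, so their probes may share transcripts. In each of these 2 genes another ISRE core overlaps the one shown. Ifit2, which had the largest genotype difference of the set, had no ISRE core in its windows but a GAS match at chr19:34550444-34550486 (plus strand).
Ifit2: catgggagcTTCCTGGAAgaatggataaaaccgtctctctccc
Across the 23 detected genes with a window, the median Foxo4_KO minus WT difference was 1.08 (log2) for the 11 with an ISRE core and 0.62 for the rest, and 0.72 for the 6 with GAS against 1.06 for the rest. The genes with an ISRE core and those without GAS both include Apol9b, Stat2, Oas3 and Ifit3, which were below background in all WT pools. The value of 1.06 is that of Oas3 itself, so the gaps between these medians are not exact. The medians are descriptions without a test.

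The main comparison asked how the interferon genes differ between Foxo4_KO and WT mucosa across the 3 treatments. They stood higher in Foxo4_KO mucosa as a group, led by Ifit2, an inhibitor of viral translation (2.52 on the log2 scale, SE 0.12), the apolipoprotein L gene Apol9a (2.25, SE 0.19) and the antiviral enzyme Rsad2 or viperin (1.94, SE 0.17). Apol9b, a close copy of Apol9a, and the antiviral GTPase Mx2 were above background in Foxo4_KO pools only, so their differences are bounds, at least 3.76-fold for Apol9b and at least 1.85-fold for Mx2 with the background correction used here. These 5 genes passed an adjusted p of 0.05 in limma, with adjusted p between 0.0115 for Ifit2 and 0.0398 for Mx2, and 3 of the 5 were measured above background in both genotypes. They are 5 of the 12 genes called higher among 8940 tested (0.134%). No gene was called lower in limma (0%), where 372 genes (4.16%), none of them interferon genes, were lower at an unadjusted p under 0.05. At an unadjusted p under 0.05, 24 of 28 interferon genes were higher, against 6.15% of all genes. The 24 include Apol9b, Mx2, Stat2, Oas3 and Ifit3, which entered the set through Foxo4_KO pools only and so could only be higher. The bounds depend on that correction: Apol9b differed by 1.58 (log2) in the authors' quantile normalized values and by 0.79 with limma's default background estimate, and Mx2 by 1.06 and 0.32. The median interferon gene was higher by 1.02 and the median of all genes differed by −0.03. These calls use all 6 pools and a background estimate chosen after the values were seen: 0 genes were called with limma's default estimate, with any 1 pool left out, or without both untreated or both TNBS pools.

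The direction was shared by most of the set. Of 28 genes, 24 were higher in Foxo4_KO in every treatment-matched pair of pools, against 13.3% of all genes, and in 23 all 3 Foxo4_KO pools were above all 3 WT pools, against 5.91%. Some of the 28 entered only through a signal in Foxo4_KO pools: Apol9b, Mx2, Stat2, Oas3 and Ifit3 were below background in all 3 WT pools. Among the 21 genes above background on all 6 arrays, 18 were higher in every pair, against 11.5% of all such genes, and in 17 the genotypes did not overlap, against 4.7%. Their median difference was 0.75. With 1 pool a group, an exact permutation test of 3 pools against 3 cannot go below p = 0.1, so a single gene has no test beyond the fit over all genes, which takes the 3 treatments of a genotype as its replicates. Xaf1 was the 1 gene with a negative estimate (−0.14, SE 0.17, adjusted p = 0.839 in limma).

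**Figure D1:**
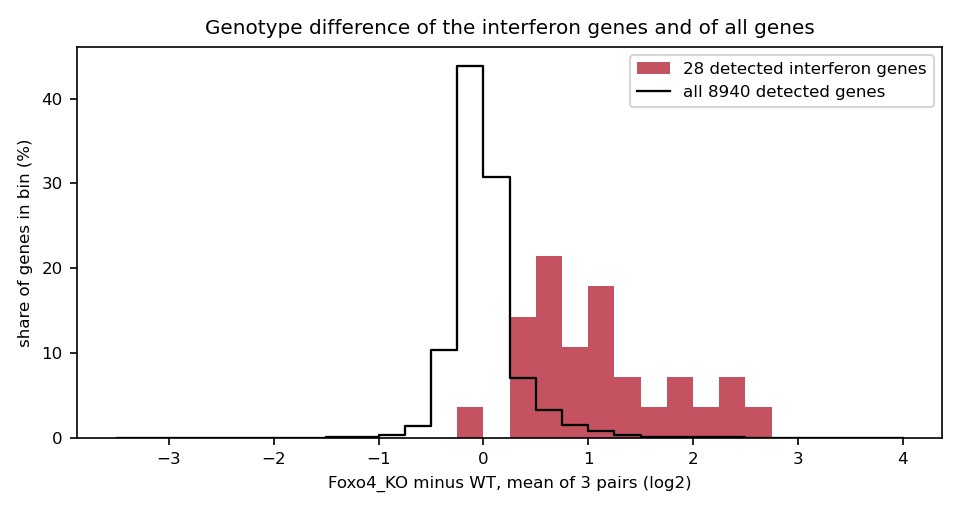
Share of genes in bins of 0.25 of the Foxo4_KO minus WT difference (log2, mean of 3 treatment-matched pairs), with bars for the 28 detected interferon genes and a line for all 8940 detected genes. The interferon genes sit to the right, with a median of 1.02 against −0.03 for all genes, and 1 of them lies below 0.

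With quantile normalization the untreated and ethanol pairs differed more than the TNBS pair. Interferon genes at least 2-fold higher in Foxo4_KO numbered 14 of 27 in the untreated pair, against 0.855% of all genes, 12 of 26 in the ethanol pair, against 2.43%, and 8 of 27 in the TNBS pair, against 1.82%, counting genes above background in at least 1 pool of the pair. The median interferon gene was higher by 1.07 (untreated pair), 1.13 (ethanol pair) and 0.64 (TNBS pair). The median of all genes differed by −0.04, −0.04 and 0.01 in these pairs. The difference was smallest in the TNBS pair for 21 of 28 interferon genes, a count not made over all genes. It includes genes below background in WT. The order of the counts at 2-fold was another with arrays scaled to the same median: 14 of 27, against 0.917% of all genes, 16 of 26, against 4.47%, and 16 of 27, against 8.22%. These counts took signals below background as they were. The counts with quantile normalization raised them to the lowest detected signal of the array, so part of the change can come from that. Across the 28 genes, which share arrays, the differences correlated at 0.81 between the untreated and ethanol pairs, 0.69 between the untreated and TNBS pairs and 0.73 between the ethanol and TNBS pairs (Pearson), while over all genes these values were 0.30, 0.21 and 0.32.

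**Figure D2:**
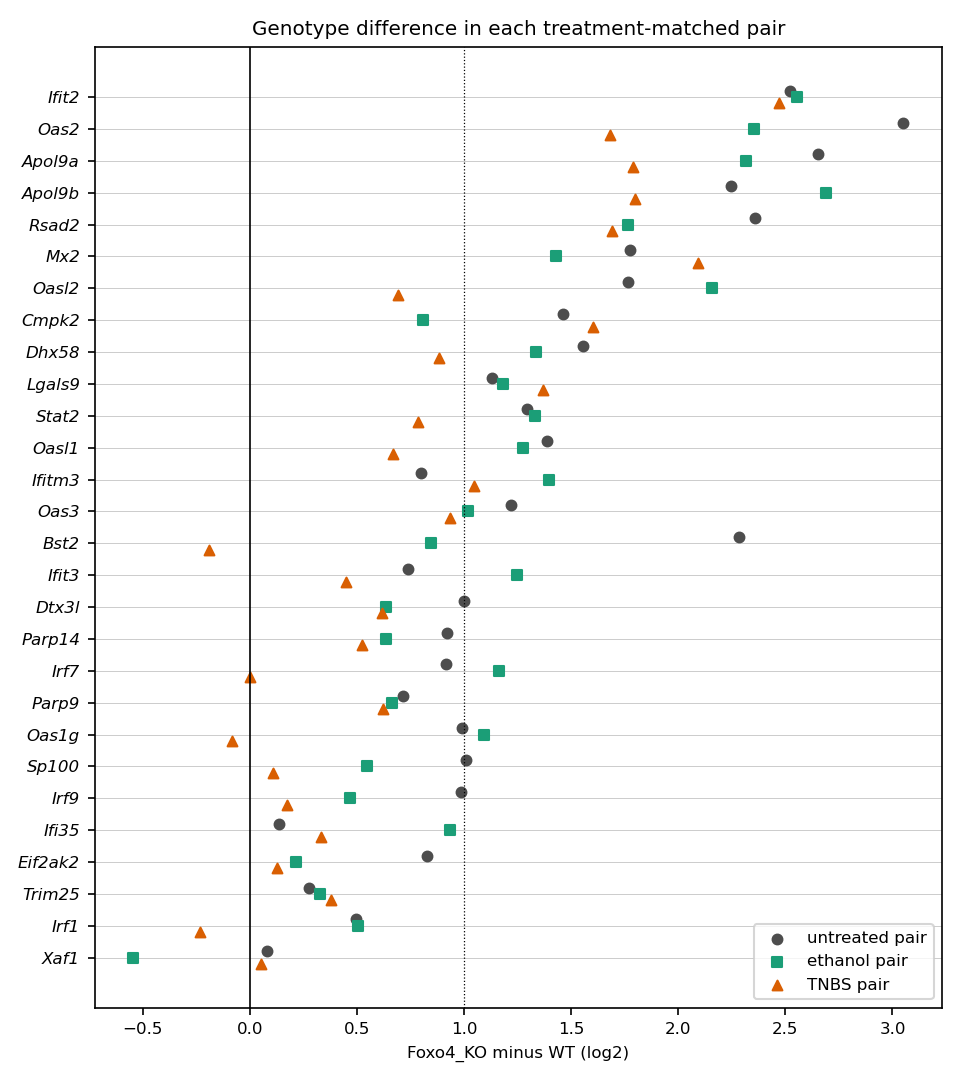
Foxo4_KO minus WT difference (log2) of each interferon gene in the untreated, ethanol and TNBS pair, 1 point a pair, genes ordered by the mean of the 3 pairs, with a solid line at 0 and a dotted line at 2-fold. Points of the upper genes lie right of the dotted line in all 3 pairs, while the TNBS points of Bst2, Irf1 and Oas1g lie left of 0 and that of Irf7 lies at 0.

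The 5 signalling factors had a median difference of 0.54, and none passed the threshold. Below, log2 signals are given in the order untreated, ethanol and TNBS. Stat2, a subunit of the ISRE-binding complex, had 6.54, 6.62 and 6.46 in Foxo4_KO pools, against 5.24, 5.29 and 5.68 in WT pools, where it was below background, which puts it at least 1.67-fold higher in Foxo4_KO with this background correction. Its adjusted p was 0.103 in limma, and the difference was 0.70 (log2) in the authors' values and 0.21 with the default background estimate. Irf9, the DNA-binding subunit of that complex, had 8.60, 8.61 and 8.23 in Foxo4_KO pools, against 7.61, 8.14 and 8.06 in WT pools, so that the lowest Foxo4_KO pool lay just above the highest WT pool. Irf7, which amplifies interferon production, had 9.95, 9.67 and 8.63 in Foxo4_KO pools, against 9.03, 8.51 and 8.63 in WT pools. The genotypes of Irf7 stood apart in the untreated and ethanol pairs and were level in the TNBS pair. Irf1, a regulator induced by both interferon types, had 10.62, 10.68 and 10.10 in Foxo4_KO pools, against 10.12, 10.17 and 10.33 in WT pools, so its TNBS pool was lower in Foxo4_KO by this probe. Trim25, the ubiquitin ligase that activates the RNA sensor RIG-I, differed by 0.33 (SE 0.12, adjusted p = 0.443 in limma) and did not overlap between genotypes.

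Sensors of viral RNA were measured by Dhx58 and Eif2ak2. Dhx58, or LGP2, which tunes the RNA sensors RIG-I and MDA5, had 8.357, 8.359 and 7.883 in Foxo4_KO pools, against 6.803, 7.022 and 6.999 in WT pools. All Foxo4_KO pools were above all WT pools, by 1.26 on average (SE 0.17, adjusted p = 0.089 in limma). Eif2ak2, or PKR, the kinase that halts translation on double-stranded RNA, had 10.19, 9.95 and 9.94 in Foxo4_KO pools, against 9.36, 9.74 and 9.82 in WT pools. Its difference came mostly from the untreated pair, at 0.83 there against 0.22 in the ethanol and 0.13 in the TNBS pair.

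The IFIT proteins bind viral RNA and translation factors. Ifit2 had 8.69, 8.82 and 9.16 in Foxo4_KO pools, against 6.17, 6.27 and 6.69 in WT pools, with deposited signals of 433, 467 and 770 in Foxo4_KO pools, against 108, 112 and 141 in WT pools. Its genotype difference was nearly the same in the untreated (2.52), ethanol (2.55) and TNBS pair (2.47), a 5.72-fold difference on average, and adjusted p was 0.0115 in limma. Ifit3, its neighbour in the same gene cluster, had 5.61, 5.86 and 4.97 in Foxo4_KO pools, where only the ethanol pool was above background, against 4.87, 4.61 and 4.52 in WT pools, all below background, so no fold is given. Ifit1, the third member measured here, was below background on every array.

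Enzymes of the OAS family make 2-5A, the messenger that activates RNase L. Oas2 had 8.89, 8.49 and 8.05 in Foxo4_KO pools, against 5.84, 6.14 and 6.37 in WT pools. The Foxo4_KO pools were each above the WT pools, and the gap measured 3.05 for untreated pools, 2.35 for ethanol pools and 1.68 for TNBS pools. Its mean difference of 2.36 had the larger SE of 0.26 and an adjusted p of 0.069 in limma. Oasl2, an OAS-like protein that keeps synthetase activity, had 7.45, 7.46 and 6.67 in Foxo4_KO pools, against 5.68, 5.30 and 5.98 in WT pools. Oasl1, a paralogue known to restrain translation of Irf7 in mice, had 9.62, 9.39 and 9.12 in Foxo4_KO pools, against 8.23, 8.11 and 8.45 in WT pools. Both showed genotypes that did not overlap and a narrower gap in the TNBS pair, at 0.69 for Oasl2 and 0.67 for Oasl1.

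Oas3 had 6.07, 5.62 and 5.64 in Foxo4_KO pools, the ethanol pool below background, against 4.85, 4.60 and 4.71 in WT pools, all below background, so no fold is given. Oas1g, a synthetase of the Oas1 cluster, had 10.45, 10.60 and 9.59 in Foxo4_KO pools, against 9.46, 9.51 and 9.67 in WT pools. The Foxo4_KO pools of Oas1g lay about 1 (log2) above WT in the untreated (0.99) and ethanol (1.09) pairs, and the TNBS pair differed by −0.09. Of 5 probes named Oas1g, 2 carry the number of Oas1a in the design's target name, so signals of these neighbours cannot be told apart.

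Rsad2 and Cmpk2 are adjacent genes of nucleotide chemistry: viperin makes a chain-terminating nucleotide, and Cmpk2 is a mitochondrial nucleotide kinase. Rsad2 had 9.89, 9.42 and 9.48 in Foxo4_KO pools, against 7.53, 7.65 and 7.80 in WT pools, from deposited signals of 944, 680 and 938 in Foxo4_KO pools, against 219, 224 and 254 in WT pools. Every Foxo4_KO pool was above every WT pool by a wide gap, 3.83-fold on average, with an adjusted p of 0.0359 in limma. Cmpk2 had 8.15, 7.91 and 8.26 in Foxo4_KO pools, against 6.69, 7.10 and 6.65 in WT pools. Its gap was narrowest in the ethanol pair (0.81) and its mean of 1.29 had an adjusted p of 0.115 in limma. Mx2 had 7.02, 6.30 and 6.74 in Foxo4_KO pools, against 5.25, 4.87 and 4.65 in WT pools, where it was below background, which gives the bound of at least 1.85-fold above. Mx1, its neighbour, was below background throughout.

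The apolipoprotein L genes Apol9a and Apol9b are interferon-inducible in mice. Apol9a had 9.64, 9.28 and 8.66 in Foxo4_KO pools, against 6.99, 6.97 and 6.87 in WT pools. Its WT pools lay within 0.12 of each other, while its Foxo4_KO pools spread over 0.99 with TNBS lowest. Apol9b had 7.84, 8.06 and 7.22 in Foxo4_KO pools, against 5.59, 5.37 and 5.43 in WT pools, where it was below background, which gives the bound of at least 3.76-fold above. Both had an adjusted p of 0.0359 in limma.

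Bst2 and Ifitm3 act at membranes, Bst2 (tetherin) by holding budding virions at the cell surface and Ifitm3 by blocking fusion in endosomes. Ifitm3 had 10.08, 10.71 and 10.90 in Foxo4_KO pools, against 9.28, 9.31 and 9.86 in WT pools. The genotypes did not overlap, and the mean difference of 1.08 had an adjusted p of 0.115 in limma. Bst2 had 8.28, 7.88 and 7.37 in Foxo4_KO pools, against 5.99, 7.03 and 7.56 in WT pools. Its genotypes were 2.29 apart when untreated, 0.85 after ethanol and −0.19 after TNBS, so they overlapped, and the mean of 0.98 had an SE of 0.44.

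Parp9 and Dtx3l, adjacent genes whose products form a ubiquitin ligase complex, and Parp14, another ADP-ribosyltransferase family member, showed small and even differences. Parp9 had 9.92, 9.89 and 9.88 in Foxo4_KO pools, against 9.21, 9.22 and 9.26 in WT pools, which is the least spread within a genotype among the 28 genes. Dtx3l had 10.31, 10.13 and 10.12 in Foxo4_KO pools, against 9.31, 9.49 and 9.51 in WT pools. Parp14 had 9.52, 9.38 and 9.20 in Foxo4_KO pools, against 8.59, 8.74 and 8.68 in WT pools. All 3 were apart in every pool, by 0.67, 0.75 and 0.69 on average, with adjusted p of 0.152, 0.157 and 0.169 in limma.

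Among the remaining genes, Lgals9, or galectin-9, a secreted lectin that acts on T cells and macrophages, had 9.17, 9.24 and 9.47 in Foxo4_KO pools, against 8.04, 8.06 and 8.10 in WT pools. Its difference of 1.23 (SE 0.13) just missed the threshold, with an adjusted p of 0.056 in limma. Sp100, a nuclear body protein, had 7.30, 7.08 and 6.72 in Foxo4_KO pools, against 6.29, 6.54 and 6.62 in WT pools, and the genotypes came close after TNBS. Ifi35, an interferon-induced leucine zipper protein, had 7.43, 7.95 and 7.37 in Foxo4_KO pools, against 7.29, 7.01 and 7.04 in WT pools. Xaf1, a pro-apoptotic factor, was above background in 1 pool of each genotype and stayed between 5.26 and 5.84 in Foxo4_KO pools and between 5.59 and 5.80 in WT pools.

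**Figure D3:**
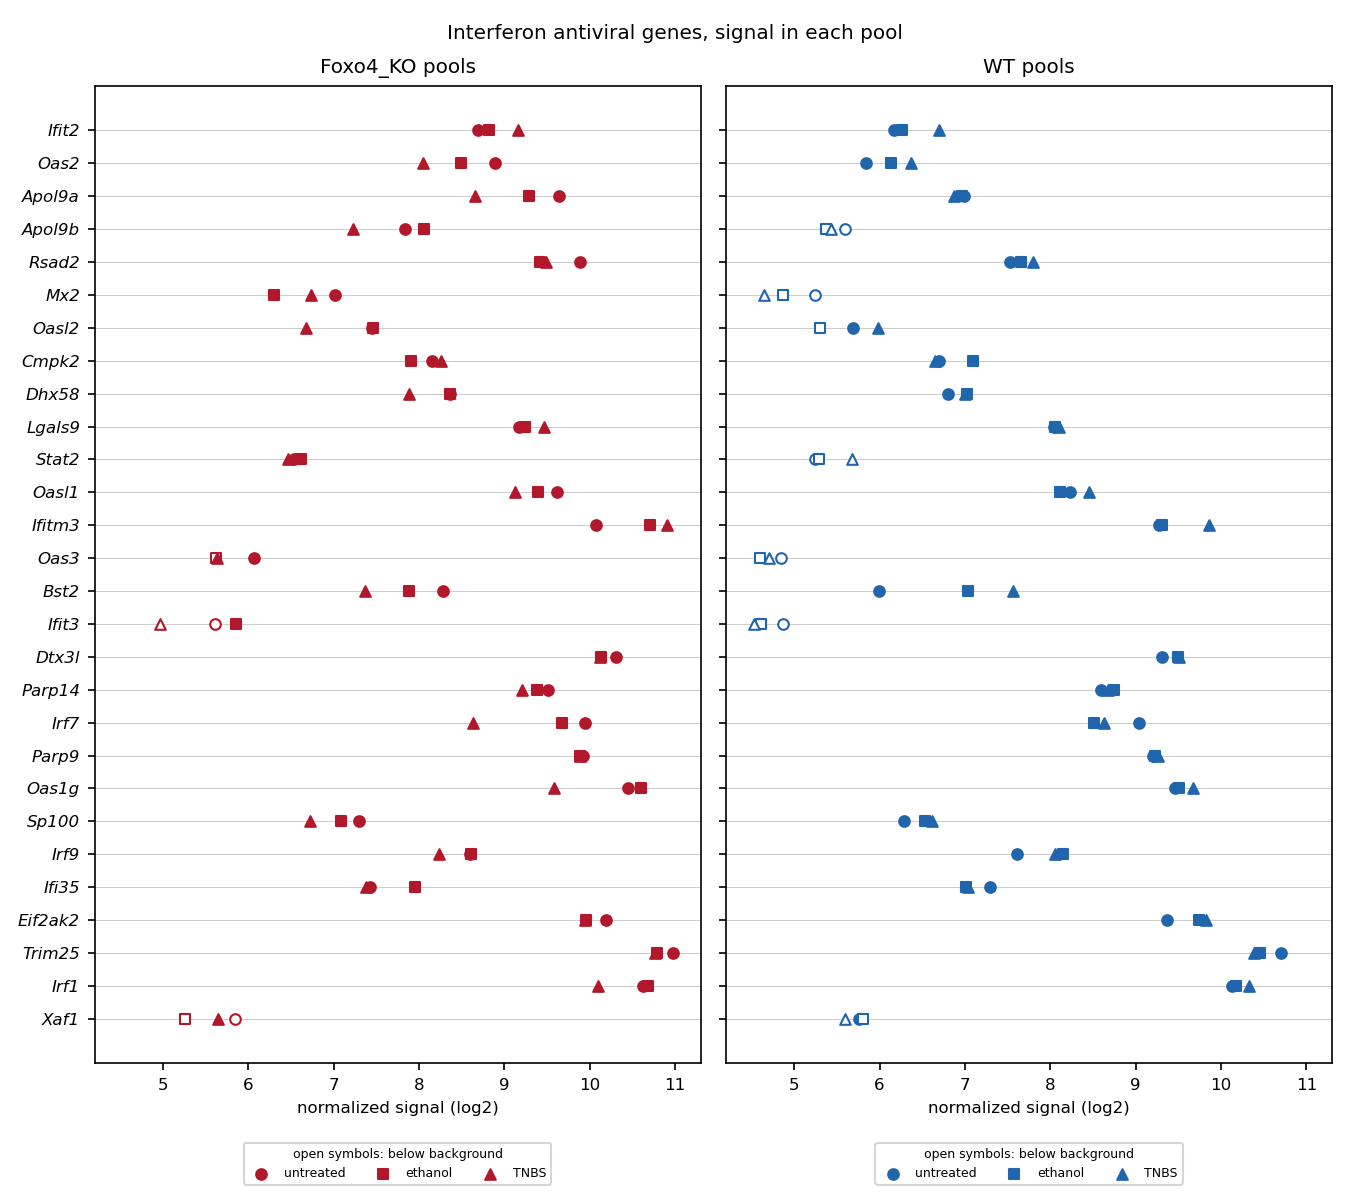
Normalized signal (log2) of the probe that represents each of the 28 interferon genes, in the 3 Foxo4_KO pools and the 3 WT pools, 1 point a pool, with open symbols for a pool in which the probe was below background. For 23 genes all Foxo4_KO points lie right of all WT points, and Apol9b, Mx2, Stat2, Oas3 and Ifit3 have open symbols in all WT pools.

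The second question was whether the enemas moved the interferon genes. For ethanol minus untreated, limma called 0 of 8940 genes (0%) and none of the 28, and at an unadjusted p under 0.05 it called 4.07% of all genes and 1 of 28, Mx2 (−0.55, SE 0.20). Mx2 was below background in all WT pools, so this estimate is not exact, and its Foxo4_KO pools alone differed by −0.72. For TNBS minus ethanol limma called 0.168% of all genes and none of the 28, and at an unadjusted p under 0.05 6.32% of all genes and 1 of 28, Ifit2 (0.39, SE 0.15). The median interferon gene differed by 0.00 for ethanol minus untreated and by −0.04 for TNBS minus ethanol. With median scaling these medians were −0.04 and 0.14, so the sign of the TNBS value depended on scaling. The median of all genes for these contrasts was not taken with median scaling. These contrasts set single pools of each genotype against each other and share the ethanol pools. The untreated pools also differed from the ethanol pools in Xist. So did the Foxo4_KO TNBS pool, where Xist was at 7.52 (log2), while it was below background in the WT TNBS pool.

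Within a genotype, at least 2-fold differences were few. Between ethanol and untreated pools they were found in 0 of 27 interferon genes in Foxo4_KO (1.26% of all genes) and in 1 of 23 in WT (0.818%), which was Bst2 at 1.04. Between TNBS and ethanol pools they were found in 2 of 28 in Foxo4_KO (3.24%), Irf7 at −1.04 and Oas1g at −1.01, and in 0 of 22 in WT (0.923%). With quantile normalization the median interferon gene was lower by 0.22 after TNBS than after ethanol in Foxo4_KO (−0.22), and differed by 0.07 in WT. The pool with the highest signal of its genotype was the TNBS pool for 4 of 28 genes in Foxo4_KO and for 15 of 28 in WT, and the untreated pool for 15 in Foxo4_KO and 8 in WT. Such counts were not made over all genes or with median scaling, and the medians within a genotype were not taken with median scaling. With 1 pool a group, none of these differences between genotypes in response has a test.

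By their representing probes, genes took different courses in the TNBS pair. Ifit2, Lgals9, Cmpk2 and Rsad2 kept a gap of 1.37 to 2.47 there, while Irf7, Oas1g, Irf1 and Bst2 were level or lower in Foxo4_KO (0.00, −0.09, −0.23 and −0.19). The level of the second group depended on scaling: when arrays were scaled to the same median in place of quantile normalization, these 4 became 0.41, 0.26, 0.15 and 0.22, where the median of all genes in that pair shifted by 0.34. Relative to the median gene, Irf7 was then higher by under 0.1, and the other 3 were lower. The Foxo4_KO TNBS array, which correlated least with the others, is part of each of these values. Its pool also had Xist above background, unlike the WT TNBS pool, so the TNBS pair was not matched in Xist. The part of this array in these values was not tested.

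**Figure D4:**
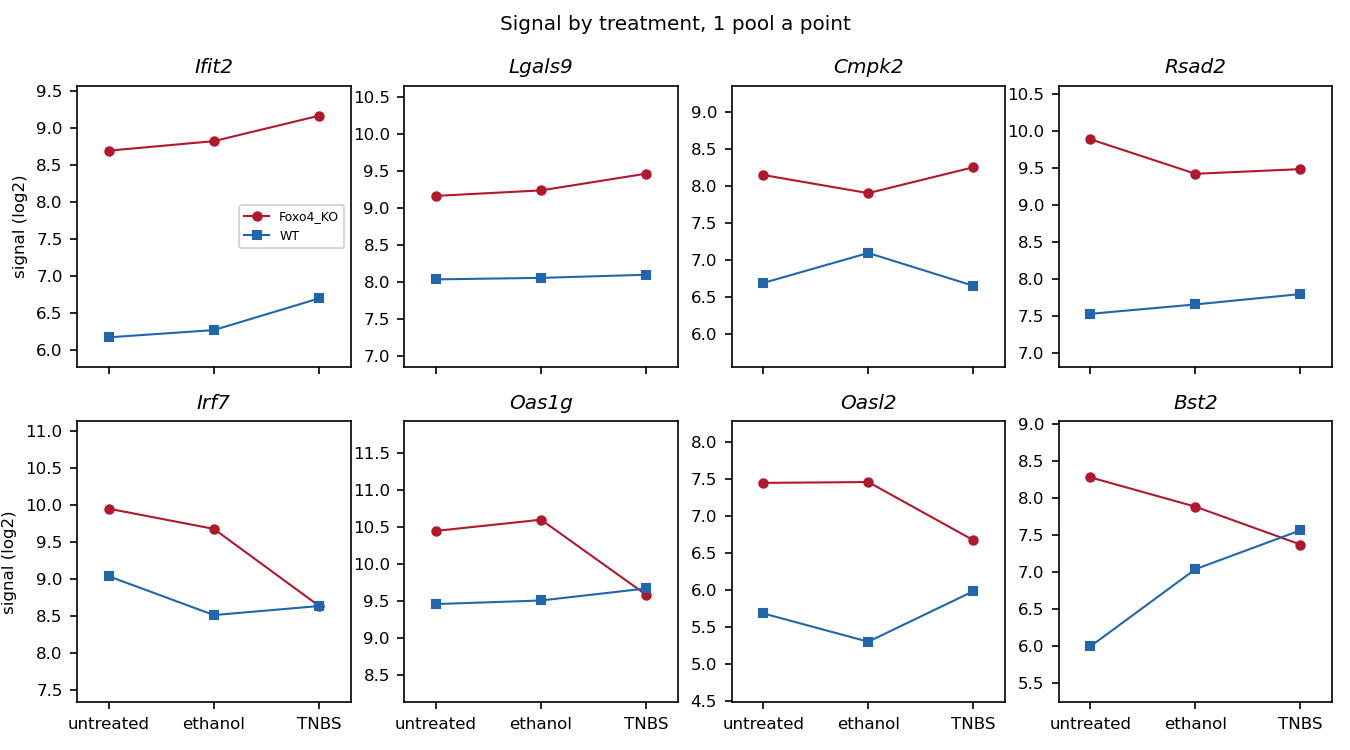
Signal (log2) of 8 interferon genes in untreated, ethanol and TNBS pools of Foxo4_KO and WT mice, 1 pool a point, all panels spanning the same number of log2 units. The lines stay apart for Ifit2, Lgals9, Cmpk2 and Rsad2 (upper panels) and meet or cross in the TNBS pool for Irf7, Oas1g and Bst2.

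In 10 interferon genes with several probes above background, the mean differences of the probes shared a sign, apart from Dtx3l. Of 28 interferon gene probes above background on all 6 arrays, many the only such probe of their gene, 23 were higher in Foxo4_KO in every pair. This count was not made over all probes, and it does not measure agreement between probes of a gene. Lgals9 had 3 probes above background on all 6 arrays, with mean differences of 1.23, 0.99 and 0.70, and in the TNBS pair they gave 1.37, 0.58 and −0.06. The 3 detected Oas1g probes gave mean differences of 0.67, 0.78 and 0.87 and, in the TNBS pair, −0.09, 0.16 and 0.34. Irf1 had 4 detected probes, of which 3 were lower in Foxo4_KO in the TNBS pair (−0.17, −0.23 and −0.41) and 1 was higher (0.33). The dim second probe of Dtx3l, above background on 3 arrays, differed by −0.10 on average, unlike the bright one at 0.75. The sign of the TNBS difference in Lgals9, Oas1g and Irf1 thus depends on the probe.

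Lists of interferon genes, receptors, sensors and negative regulators gave other values. Over all genes, 13.3% were higher in Foxo4_KO in every pair. Of 18 interferon genes with a probe, Ifnz alone was above background on any array, and it differed by −0.13 (SE 0.28). Of the receptors and kinases 8 of 9 were above background, with a median difference of −0.14, and 1 of the 8, Ifnar2 (0.44, SE 0.18), was higher in every pair. Ifnlr1, the type III receptor chain, differed by −0.21, and Ifnar1 was below background. Of the upstream sensors and adaptors 11 of 16 were above background, with a median of 0.02 and 3 of 11 higher in every pair, Ddx58 (0.63), Irf8 (0.47) and Irf5 (0.39). Negative regulators had a median of 0.41, and 4 of 8 exceeded WT in every pair, including the nuclease Trex1 (0.79, SE 0.13) and the RNA editor Adar (0.60, SE 0.12). None of these genes passed an adjusted p of 0.05 in limma.

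Genes that lean on interferon gamma were higher as well. All 9 detected of 12 with a probe were higher in Foxo4_KO in every pair, with a median of 1.11, against 13.3% of all genes. Cxcl9, a T cell chemokine, was called at 1.62 (SE 0.14, adjusted p = 0.0359 in limma). The GTPases Gbp3 (1.34, SE 0.16) and Igtp (1.34, SE 0.25) and the immunoproteasome subunit Psmb8 (1.11, SE 0.15) had adjusted p between 0.0746 and 0.155 in limma. Cxcl10, Cxcl11 and Nos2 were below background.

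Cell type markers also moved with genotype. In RNA of whole mucosa, a difference in the number of cells of a type and one in RNA per cell cannot be told apart. Of 7 detected macrophage and monocyte markers, 6 exceeded WT in every pair (median 0.69), against 13.3% of all genes. Mean log2 signals were 7.74, 8.11 and 7.92 in Foxo4_KO pools, against 7.41, 6.95 and 7.36 in WT pools. Laptm5 differed by 1.22 and Cd14, the exception, by 0.06. Of 6 detected markers of T and NK cells, 4 exceeded WT in every pair (median 0.82), with Cd3d at 1.12 and Cd3g at 0.91. Thy1 (0.67) and Klrb1c (−0.19, above background on 1 array) did not. Means of the 6 were 6.82, 6.65 and 6.26 in Foxo4_KO pools, against 6.21, 5.61 and 5.83 in WT pools. Of 5 detected markers of B and plasma cells, 4 exceeded WT in every pair (median 1.41), with Mzb1 at 1.55 and Cd79a at 1.53. The B cell marker Ms4a1 (0.04, above background on 1 array) did not. Means of the 5 were 7.04, 6.99 and 6.29 in Foxo4_KO pools, against 6.00, 5.45 and 5.65 in WT pools. In the untreated pair the medians were 0.25 for macrophage, 0.69 for T and NK cell and 1.25 for B and plasma cell markers. Their part in the interferon gene difference was not tested.

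Plasmacytoid dendritic cells, which make much type I interferon, had 4 of 8 markers above background. Of these, Irf8 alone was higher in every pair, against 13.3% of all genes. The median difference of the 4 was 0.30, with Irf8 at 0.47, Tcf4 at 0.40 and Ly6d at 0.20. The defining marker Siglech, above background on 3 arrays, differed by −0.29 (SE 0.21). Of 7 detected epithelial markers, 0 exceeded WT in every pair (median −0.11), with means of 10.86, 10.75 and 10.68 in Foxo4_KO pools, against 10.76, 10.90 and 10.97 in WT pools. Smooth muscle markers differed by a median of 0.13 (untreated pair), 2.91 (ethanol pair) and 1.09 (TNBS pair), with means of 7.45, 10.14 and 9.72 in Foxo4_KO pools, against 7.38, 7.52 and 8.64 in WT pools. Fibroblast markers differed by 0.01, 1.19 and 0.88 in those pairs, and endothelial markers by −0.05, 0.77 and 0.56. Of 3 detected neutrophil markers, 0 exceeded WT in every pair, and S100a8 was at 4.42, 4.60 and 11.25 in Foxo4_KO pools, against 4.30, 7.68 and 7.98 in WT pools.

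**Figure D5:**
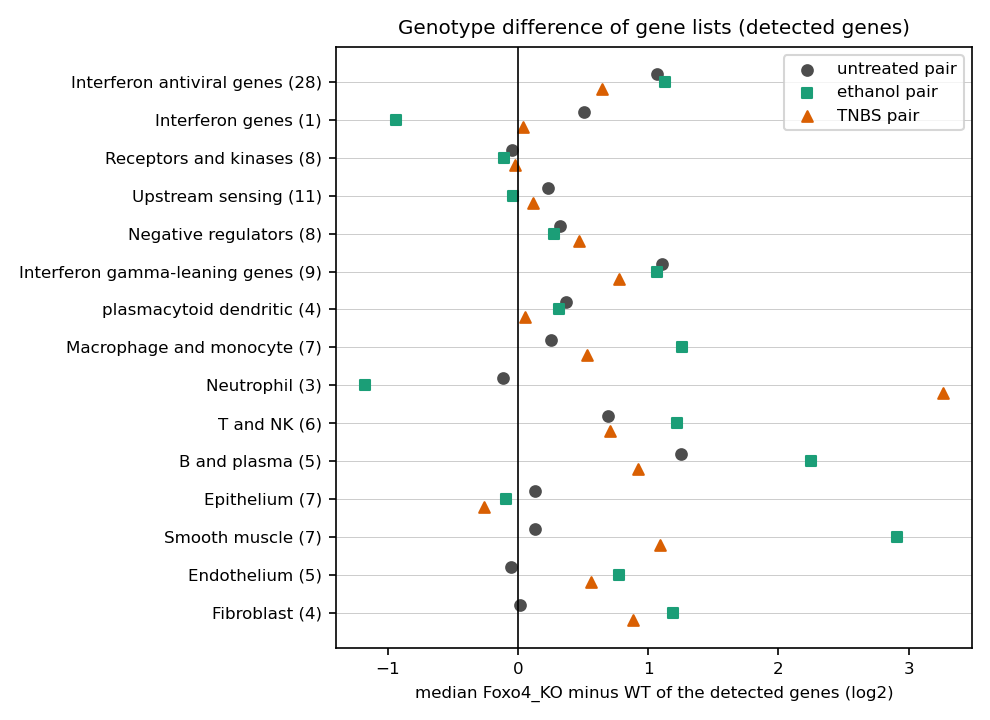
Median Foxo4_KO minus WT difference (log2) of the detected genes of each list in the untreated, ethanol and TNBS pair, with the number of detected genes in parentheses. The interferon antiviral genes, the interferon gamma-leaning genes and the markers of T and NK and of B and plasma cells are above 0.6 in all 3 pairs, receptors and kinases and epithelial markers lie near 0, and smooth muscle markers are far right in the ethanol pair (2.91).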

How the data were processed

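Total RNA of colonic mucosa was amplified to biotin-labelled cRNA for Illumina bead arrays, per the labels' protocols. The deposited unnormalized table held a mean bead intensity per probe and array and a detection score, a p-value per the file headers, which climbs as the signal does and was therefore taken as 1 minus p. A second deposited table held the authors' quantile normalized intensity values with probe identifiers. The sources used here do not give scanner, software or genome build. Tables were joined by rank profile (46572 of 46632 probes, 99.9%, and 6550 if 2 arrays are swapped), and of 8029 gene numbers in target names 7954 matched. Genes were named from GEO's platform annotation.

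Background was corrected with normexp (limma 3.58.1, R 4.3.3; offset 16), then arrays were quantile normalized and taken to log2, in place of the deposited intensity. Background mean and SD were the median and median absolute deviation of negative controls rebuilt from the scores. This replaced the neqc default, the setting planned, after values were seen, because contradictory scores raised the default SD to 107 to 141, against 6.97 to 7.93. A gene was represented by its brightest probe with detection p under 0.01 on at least 1 array. limma was fitted to treatment plus genotype over 8940 genes (2 residual degrees of freedom), with Benjamini-Hochberg adjustment. The fit was also run on simulated data, drawn with independent noise and no treatment effect. That run cannot show how the fit does on 1 pool a group. Where a gene was below background in all pools of a genotype, "at least" folds use the lowest detected signal per array. Nothing says that pools are more than 1 per group, so p-values measure spread between pools of different treatments. Genes named in full were up to 3 per role with the largest genotype difference, the 5 largest per treatment contrast and those with disagreeing probes. Further rules named up to 3 genes of each other list and defining cell type markers. The members and lists were chosen with earlier results of these data known. Alternatives were the authors' values, median scaling, offset 50, other filters, probe rules, priors and pools left out. Other steps ran in Python 3.11.15 with pandas 2.3.3, scipy 1.17.1, numpy 2.4.6 and, for figures, matplotlib 3.10.9.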

Additional observations from a re-analysis of the deposited data

Results flagged for a closer look

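Bst2 is listed because its TNBS pool lay on opposite sides of the ethanol pool in the genotypes: TNBS minus ethanol was −0.51 (log2) in Foxo4_KO and 0.53 in WT. Its deposited signals were closer in Foxo4_KO, at 268 (ethanol) and 248 (TNBS), against 161 and 221 in WT. With median scaling its TNBS pair differed by 0.22 in place of −0.19. Oasl2 went further by its values (−0.79 in Foxo4_KO and 0.68 in WT), but its WT ethanol pool was below background, which leaves a WT difference of at least 0.16. In 17 of 28 genes this difference had opposite signs in the genotypes, negative in Foxo4_KO and positive in WT for 14, and besides Bst2 and Oasl2 none of the 17 passed 0.5 in both genotypes. These signs were counted with quantile normalization only, and not over all genes. The median of all genes for TNBS minus ethanol was 0.02 in Foxo4_KO and −0.003 in WT. The difference between genotypes was not tested, since each group is 1 pool. The threshold of 0.5 for such opposite moves was set with values known.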

How the results depend on the processing

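Apart from Xaf1, each of the 28 genes was higher in Foxo4_KO under the alternatives that give it 1 value, and with every probe kept apart the dim Dtx3l probe differed by −0.10, but the calls were not stable. Interferon genes called for genotype numbered 5 of 12 genes in all, 14 of 95 with median scaling (89 higher and 6 lower, against 12 and 0), 9 of 31 with a trended and robust prior and 1 of 1 without the detection filter, where 17698 genes were tested. With offset 50 they were 7 of 19, and with the authors' values 6 of 14, where Mx2 had an adjusted p of 0.0529 in limma. The background SD used was chosen after seeing the data, and the default SD it replaced gave 0. Leaving out both untreated (0) or both TNBS pools (0), also chosen after seeing the data, gave none, and leaving out each pool in turn gave 0 throughout, in fits with fewer residual degrees of freedom. The median difference of 1.02 became 0.71 with the authors' values, 0.73 with offset 50, 0.75 without the filter, 0.75 with detection on all arrays and 0.75 with the default background SD, and 0.75 with the genes below background in WT at their bound. In the TNBS pair 16 genes in place of 8 were at least 2-fold higher with median scaling, against 8.22% in place of 1.82% of all genes. Signals below background were raised to the lowest detected signal for the 8 but not for the 16. Leaving out each pool moved the median of ethanol minus untreated between −0.17 and 0.12, that of TNBS minus ethanol between −0.27 and 0.083, and Xaf1 between −0.25 and 0.067, its sign turning without either ethanol pool. The cause of these changes was not tested. No paired analysis was possible because each group holds 1 pool, so replicate numbers pair nothing beyond the treatment term already in the fit. Dim probes near background limit Ifit3, Oas3, Stat2, Mx2 and Xaf1.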

Other observations

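The other 7 genes called higher in Foxo4_KO beside Ifit2, Apol9a, Apol9b, Rsad2 and Mx2, named after their values were seen, were the epithelial antigen Gpa33 (3.07, SE 0.28), Nenf (2.17), the interferon-inducible GTPase Gbp2b (2.16), Pdrg1 (2.08), the T cell chemokine Ccl5 (1.94), Cxcl9 (1.62) and Dlk1 (1.44). Each had an adjusted p between 0.0182 and 0.0359 in limma.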
